A study of Mus musculus with 96 samples.

Results

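The actin and contractile genes described here are 10 of the 40202 genes in the count tables: the cytoplasmic actins Actb and Actg1, smooth muscle actin Acta2, the actin-binding proteins Tagln, Tagln2 and Cnn1, the myosin light chain Myl9, the tropomyosins Tpm1 and Tpm2, and the adhesion protein Vcl. They were chosen by gene symbol, and all 10 symbols were found. The cells were C10, an established mouse lung line that the labels call alveolar type II epithelial. Single cells were dispensed for nanoSPLITS, a method that divides the content of 1 cell between RNA and protein measurement, and the RNA was made into SMART-seq v4 libraries, which copy whole polyadenylated transcripts. Of 96 libraries of 1 cell each, 48 came from control cells that received no treatment and 48 from cells given RO-3306, sold as an inhibitor of the mitotic kinase CDK1, at a labelled dose of 10 nM for 36 h (the compound is commonly used at micromolar doses, and the labelled unit cannot be checked from the files); no other treatment or genetic change is named for either group.

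Libraries had to hold 50000 counts or more and 1000 detected genes or more to be kept, which left 29 control and 37 RO-3306 cells with a median of 1753427 and 2234309 counts. The labels name no separate cultures, so each treatment is 1 sample and the difference between the groups has no replicate check. No p-value is therefore given, and the intervals are 95% intervals that cover counting error only. The titles carry the letters A to D, with 5 to 10 kept control cells and 6 to 11 kept RO-3306 cells per letter. These lettered sets are used here only to see whether a difference has the same sign in each, since nothing says that they are separate cultures. The labels also do not say that the same letter links a control set to an RO-3306 set, so the pairing by letter may be arbitrary. The groups also differed in detected genes, with a median of 4591 and 5957 per cell over the 25 control and 34 RO-3306 cells deep enough to be thinned to 639000 reads, and in the mitochondrial share of counts, with a median of 3.40% and 4.42%. In 1 RO-3306 cell (B3) that share was 56.0%. The part of these differences in the values below was not tested.

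The labelled cell type was checked against its markers. Of 10 alveolar type II markers 5 had no count in any kept cell, the surfactant genes Sftpa1, Sftpc and Sftpd among them, and the list summed to 23.5 CPM (counts scaled to 1e+06 per group or cell) in the control group and to 27.7 CPM with RO-3306. Epithelial markers summed to 1.96 and 1.05 CPM, with Krt18 and Cldn4 at 0. Of 10 fibroblast markers 8 had a count in at least 1 kept cell, while Lum and Thy1 were at 0. Col1a2, Pdgfra and Pdgfrb were sparse, with a count in 2, 6 and 7 of 29 control cells and in 11, 8 and 2 of 37 RO-3306 cells. The list summed to 5383 and 2546 CPM, between 990.4 and 10094 in single control cells and between 1019 and 14731 in single RO-3306 cells. Lower in all 4 lettered sets were the collagens Col1a1 (714 and 127 CPM) and Col3a1 (603 and 83.6 CPM) and the filament protein vimentin (Vim, 2427 and 1264 CPM). The other markers of the list were not, among them Dcn (834 and 873 CPM) and Fn1 (729 and 182 CPM). Vim alone had the highest level of the list in both groups. Smooth muscle cells share Acta2, Tagln, Cnn1 and Myl9 with activated fibroblasts, so the fibroblast values stand beside all that follows, and their part in it was not tested.

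Actin monomers polymerise into filaments that shape the cell, carry its cortex and, during division, form the ring that separates the daughter cells. Actb and Actg1 encode the actins that every cell uses, whereas Acta2 is the actin of smooth muscle and of contractile fibroblasts. Tropomyosins lie along the filament and set which myosins bind it, Myl9 is a regulatory light chain of the myosin motor, calponin (Cnn1) and the transgelins (Tagln, Tagln2) bind and stabilise filaments, and vinculin (Vcl) links them to cell adhesions. Transcription of many of these genes is driven by serum response factor, SRF, which binds a DNA element named the CArG box together with cofactors that sense the pool of free actin.

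The 2 cytoplasmic actins differ in few amino acids, so within the reading frame their genes must be told apart mostly by silent differences. The longest transcripts, of 1920 bases for Actb and 1952 for Actg1, also hold bases outside the frame. Reads from those bases can tell the genes apart too, and they were not aligned here. The longest reading frames of Actb and Actg1 in the reference transcripts are both 1128 bases long and match at 88.7% of positions, with 128 differences. The opening 60 bases of each frame are shown, from GENCODE M21 transcripts, with capitals at the 9 positions that differ. Not all of these 9 differences are silent, so this stretch does not stand for the whole frame.
Actb: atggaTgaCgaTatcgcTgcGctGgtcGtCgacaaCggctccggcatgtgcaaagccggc
Actg1: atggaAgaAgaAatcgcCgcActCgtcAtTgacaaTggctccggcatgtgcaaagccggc

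No stretch of 150 bases, the read length, in the longest Actb transcript was identical to a transcript of another gene. In Actg1, 43.5% of such stretches were identical to transcripts of 3 other genes, none of which is among the genes counted in the files. The closest was the processed pseudogene Gm12715, which held 39.3% of the stretches and is not used here. The deposited tables split a read with several positions into fractions, and Actg1 had a fractional count in 29 of 29 control and 36 of 37 RO-3306 cells. Other members had fractional counts in fewer cells, Actb in 16 and 21, Acta2 in 15 and 18 and Tpm1 in 20 and 25, although none of their 150-base stretches was shared. Levels of Actg1 are therefore uncertain and may be understated in both groups. Acta2 matched Actb at 83.2% and Actg1 at 81.9% of positions and had no shared stretch.

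CArG boxes were searched, on both strands, in the 250 bases before the start of each RefSeq gene (GRCm38.p6), in which 8 of the 10 members were matched; Actb and Tagln were not. A box was found in 482 of 32851 such windows (1.47%) and in 3 of the 8 members: Actg1 (80 bases before the start), Myl9 (151 bases) and Vcl (217 bases). A near match, with G or C at 1 of the inner positions that are otherwise A or T, was found in 7.24% of windows, and among the members in Acta2 (74 and 24 bases before the start) and Myl9 (89 bases). The windows of Actg1, Acta2 and Myl9 are shown since these 3 genes had a window with a match and very different levels, as given below; capitals mark the boxes and near matches. A match is a description of the letters and shows no binding.
Actg1, chr11:120348496-120348745, minus strand: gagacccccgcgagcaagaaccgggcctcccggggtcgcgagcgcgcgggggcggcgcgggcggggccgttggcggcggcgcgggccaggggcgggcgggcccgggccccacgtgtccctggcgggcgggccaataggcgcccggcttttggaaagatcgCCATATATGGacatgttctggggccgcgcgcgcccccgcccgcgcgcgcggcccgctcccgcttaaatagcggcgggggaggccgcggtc
Acta2, chr19:34255374-34255623, minus strand: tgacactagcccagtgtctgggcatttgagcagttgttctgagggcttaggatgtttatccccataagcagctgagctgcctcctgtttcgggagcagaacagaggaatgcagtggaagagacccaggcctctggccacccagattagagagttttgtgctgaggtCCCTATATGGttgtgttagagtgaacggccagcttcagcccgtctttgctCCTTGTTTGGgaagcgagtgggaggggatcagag
Myl9, chr2:156775214-156775463, plus strand: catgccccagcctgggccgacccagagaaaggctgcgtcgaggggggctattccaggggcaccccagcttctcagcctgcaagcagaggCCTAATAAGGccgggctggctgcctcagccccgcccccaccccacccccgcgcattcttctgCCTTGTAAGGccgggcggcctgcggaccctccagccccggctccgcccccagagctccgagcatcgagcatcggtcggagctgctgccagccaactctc

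Actb was the member whose level differed most consistently between the groups. Its gene lies on chromosome 5 (GRCm39, 142888870 to 142892509, minus strand). In control cells Actb ranged from 192 CPM in cell C3 through a median of 2501 to 5734 CPM in cell C7, and in RO-3306 cells from 537 through a median of 1656 to 2623 CPM. The groups overlapped at the low end but not at the high end: 12 of 29 control cells lay above every RO-3306 cell, and only 2 of 37 RO-3306 cells lay above the control median. Summed over cells, Actb was at 2636 CPM (counting interval 2624 to 2649) in control and 1626 CPM (1617 to 1634) in RO-3306 cells, a ratio of 0.617. The log2 ratio, taken after 1 CPM was added to both levels and with RO-3306 as the numerator, was -0.70 and it was -0.38, -1.12, -0.92 and -0.38 in sets A to D. It was below 0 under each of 16 alternative settings (-0.84 to -0.46) and when any 1 of the 66 kept cells was left out (-0.74 to -0.64). Actb's span shares 401 of its 3640 bases with the opposite-strand gene Gm38733; the tables do not state whether strand was used.

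**Figure D1:**
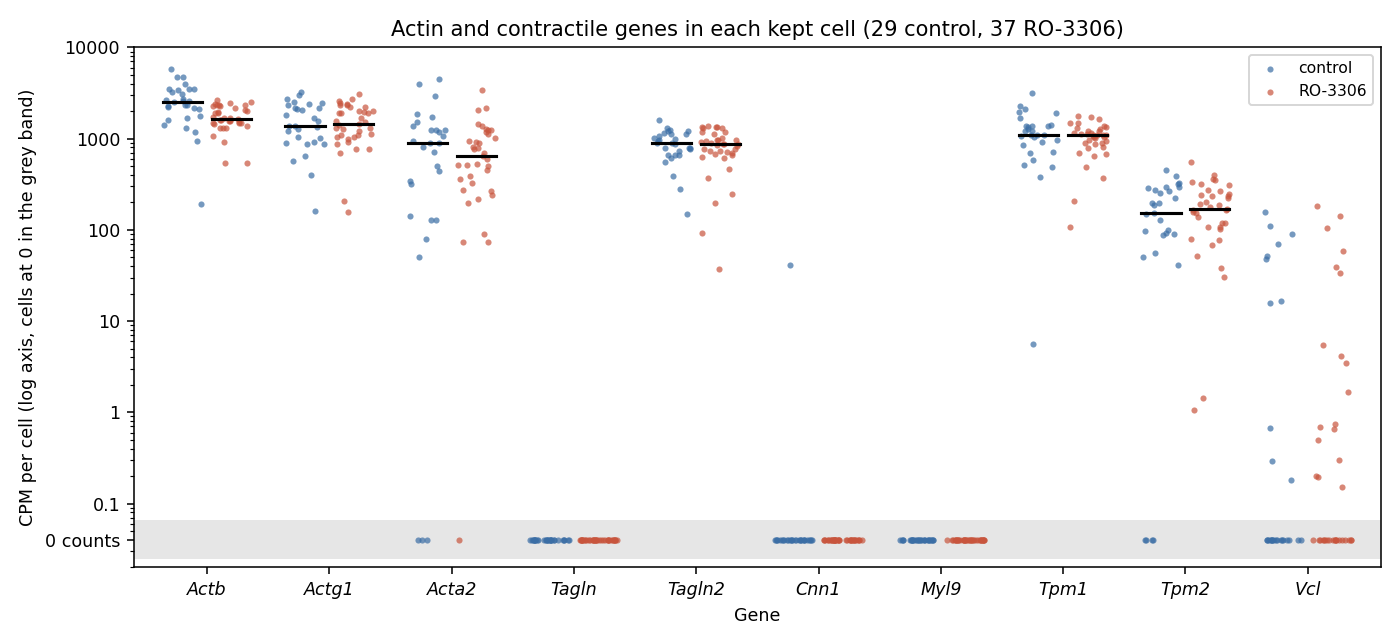
Level of each of the 10 genes in each kept cell, in CPM on a log axis, with control cells in blue and RO-3306 cells in red; black bars are medians over cells and cells with 0 counts lie in the grey band. The upper part of the Actb cloud, with 12 control cells above 2623 CPM, has no RO-3306 cell, while the clouds of Actg1 and Tagln2 cover much the same range, 5 control cells lie above every RO-3306 cell in Tpm1, and Tagln and Myl9 have only cells at 0.

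Actg1, on chromosome 11 (120236513 to 120239321, minus strand), did not show the lower level of Actb. Control cells ranged from 160 through a median of 1390 to 3279 CPM, and RO-3306 cells from 158 through a median of 1464 to 3115 CPM, so that the ranges were almost the same. The summed levels were 1657 CPM (1647 to 1667) and 1581 CPM (1573 to 1589). The log2 ratio of -0.07 had no common sign over the sets (0.34, -0.49, -0.66 and 0.53), and it was above 0 under 5 of the 16 alternatives, among them edgeR's TMM scaling (0.14) and DESeq2's size factors (0.17).

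The balance of the 2 cytoplasmic actins differed accordingly. Actb supplied a median of 64.5% of the Actb and Actg1 counts of a control cell (lowest 36.0%, highest 84.1%) and 53.3% of those of an RO-3306 cell (37.9% to 93.5%). The cells overlapped widely, and Actb was below Actg1 in 5 of the 29 control cells and in 13 of the 37 treated ones. In summed counts the share was 61.4% (Clopper-Pearson interval 61.2 to 61.6) and 50.7% (50.5 to 50.9). It was lower with RO-3306 in all 4 sets, at 61.2% and 49.0% in A, 62.4% and 51.7% in B, 56.7% and 52.2% in C, and 64.9% and 49.6% in D. The median over cells in set C did not follow this order, at 52.5% in control and 54.1% in RO-3306 cells. The share needs no scaling between libraries, but it takes over the uncertainty of Actg1's shared stretches. The highest share belonged to RO-3306 cell B3, which had the largest mitochondrial share of counts.

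**Figure D2:**
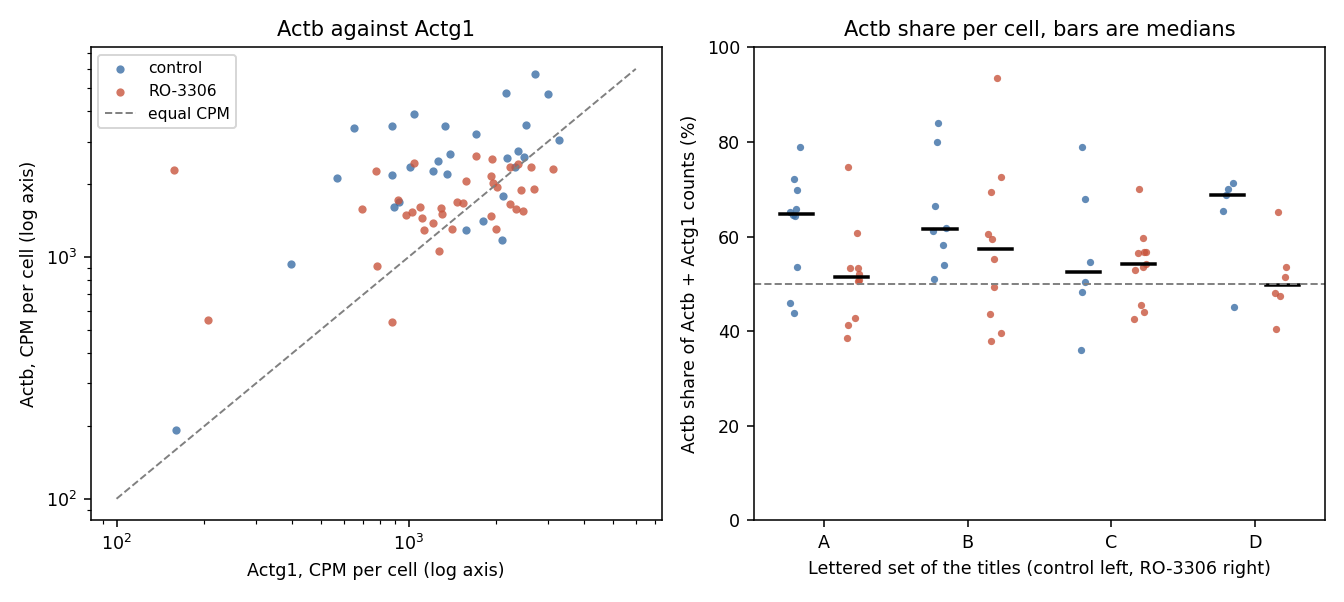
Left, Actb against Actg1 in each kept cell, both in CPM on log axes, with a dashed line at equal CPM. Right, the share of Actb in the Actb and Actg1 counts of each cell by lettered set, control on the left of each pair in blue and RO-3306 on the right in red, with bars at medians: the RO-3306 median is below the control median in A, B and D and above it in C.

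Acta2, on chromosome 19 (34217736 to 34232985, minus strand), varied most among the well-expressed members. It ranged in control cells from 0 in 3 of 29 through a median of 894 to 4485 CPM in cell A9, with quartiles at 142 and 1252 CPM, and in RO-3306 cells from 0 in 1 of 37 through a median of 643 to 3422 CPM, with quartiles at 327 and 1130 CPM. At equal depth its coefficient of variation over cells was 1.01 in control and 0.867 in RO-3306 cells, against 0.391 and 0.300 for Actb. The ranges overlapped almost fully, with 2 control cells above every RO-3306 cell. The summed level was 1052 CPM (1044 to 1060) in control and 837 CPM (831 to 843) in RO-3306 cells. The log2 ratio of -0.33 rested in part on set A: without it the value was 0.10, and the summed level of a set ran from 447 to 1423 CPM in control cells alone. Of all actin counts, Acta2 made 19.7% in control and 20.7% in RO-3306 cells.

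Of Myl9, Tagln and Cnn1, which mark the contractile smooth muscle state beside Acta2, almost nothing was counted. Other smooth muscle genes were counted, as given below. Myl9 (chromosome 2, 156617324 to 156623577, plus strand) had 0 counts in all 66 kept cells and in the 30 libraries left out, which allows up to 0.0454 CPM in control cells and 0.0323 CPM in RO-3306 cells at 3 counts per group. Tagln (chromosome 9, 45840926 to 45847356, minus strand) also had 0 counts throughout. For Tagln the counting may have removed reads, and to what extent was not tested. In the files its span shares 2480 of 6431 bases (38.6%) with Pcsk7 on the opposite strand, reads that fall in 2 gene spans are left out by default in the counting tool, and in GENCODE M21 85.9% of the exon bases of the longest Tagln transcript lie within that distance of its 3′ end. By the gene spans of GENCODE M21 itself, only 108 of those 1595 exon bases (6.77%) lie inside Pcsk7, so the share of Tagln reads affected depends on the annotation. Myl9 shares no base of its span with another gene. Cnn1 (chromosome 9, 22010501 to 22020517, plus strand) had 153 counts, all in control cell A1, at 40.8 CPM there; its summed level was 2.32 CPM in control, and no RO-3306 cell had a count (0 of 37), which allows a share of up to 8.11% of cells with a count at this depth and sets no limit on cells that express the gene.

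Tagln2, the transgelin of cells outside smooth muscle, was present in every kept cell. Its gene lies on chromosome 1 (172327813 to 172334942, plus strand). Control cells ranged from 150 through a median of 894 to 1616 CPM and RO-3306 cells from 37.3 through a median of 862 to 1377 CPM. The groups covered the same range, except for 1 control cell above and 2 RO-3306 cells below all cells of the other group. The summed levels were 902 CPM (894 to 909) and 870 CPM (864 to 876), a log2 ratio of -0.05 that was above 0 with TMM scaling (0.16) and in sets A and D (0.06 and 0.62).

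Among the tropomyosins, Tpm1 was slightly lower with RO-3306, by about as much as the median gene. The median log2 ratio was -0.22 over all 9374 genes of at least 5 CPM and -0.24 over the 200 genes nearest in mRNA length. Once the latter was subtracted, the Tpm1 value was -0.03. Tpm1 (chromosome 9, 66929872 to 66956954, minus strand) ranged in control cells from 5.65 through a median of 1104 to 3186 CPM and in RO-3306 cells from 108 through a median of 1087 to 1757 CPM. The medians were close, and the groups differed at the top, where 5 control cells lay above every RO-3306 cell. The summed levels were 1281 CPM (1272 to 1289) and 1066 CPM (1060 to 1073), a log2 ratio of -0.26. It was below 0 in sets A to D, at -0.02, -0.07, -0.46 and -0.65, and under all 16 alternatives, but only by -0.05 with TMM scaling and by -0.02 as a ratio of medians over cells. When any 1 of the 66 cells was left out, the ratio was below 0 in all 4 sets 60 times and not 6 times. The common sign also depends on the pairing by letter, since Tpm1 in RO-3306 set A (1290 CPM) was above control set B (1155 CPM). For Actb every control set, from 2249 CPM, was above every RO-3306 set, up to 1872 CPM.

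Tpm2 (chromosome 4, 43513726 to 43523583, minus strand) was the only member of at least 5 CPM with a ratio above 0, and by little. Control cells ranged from 0 in 4 of 29 through a median of 152 to 457 CPM. RO-3306 cells ranged from 1.07 through a median of 167 to 551 CPM, so that the ranges overlapped. Only control cells were at 0 at full depth, a contrast that was lost at equal depth. After thinning, the detection rate was 92% in control (25 cells) and 94.1% with RO-3306 (34 cells). RO-3306 cells B5 and C7, which held 6 and 2 counts at full depth, were then at 0. The summed levels were 183 CPM (180 to 186) and 196 CPM (193 to 199), a log2 ratio of 0.10. This rested on set D (1.21): without set D the ratio was -0.15, and without RO-3306 cell D6 alone it was -0.04.

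Vcl, on chromosome 14 (20979436 to 21083744, plus strand), was sparse. A count was found in 11 of 29 control cells (37.9%, Clopper-Pearson interval 20.7 to 57.7) and in 18 of 37 RO-3306 cells (48.6%, 31.9 to 65.6), so that the median control cell and the median RO-3306 cell were at 0. The highest cells reached 157 CPM in control cells and 182 CPM in RO-3306. The summed levels were 21.8 and 14.01 CPM, a log2 ratio of -0.60. Single cells decided this value: it was -1.37 without RO-3306 cell D8 and -0.22 without control cell A5. It was positive in set C (1.01) and also once the median of the 200 genes nearest in mRNA length was subtracted (0.25), since the Vcl transcript is long (5267 bases) and genes of like length had a median log2 ratio of -0.85.

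**Figure D3:**
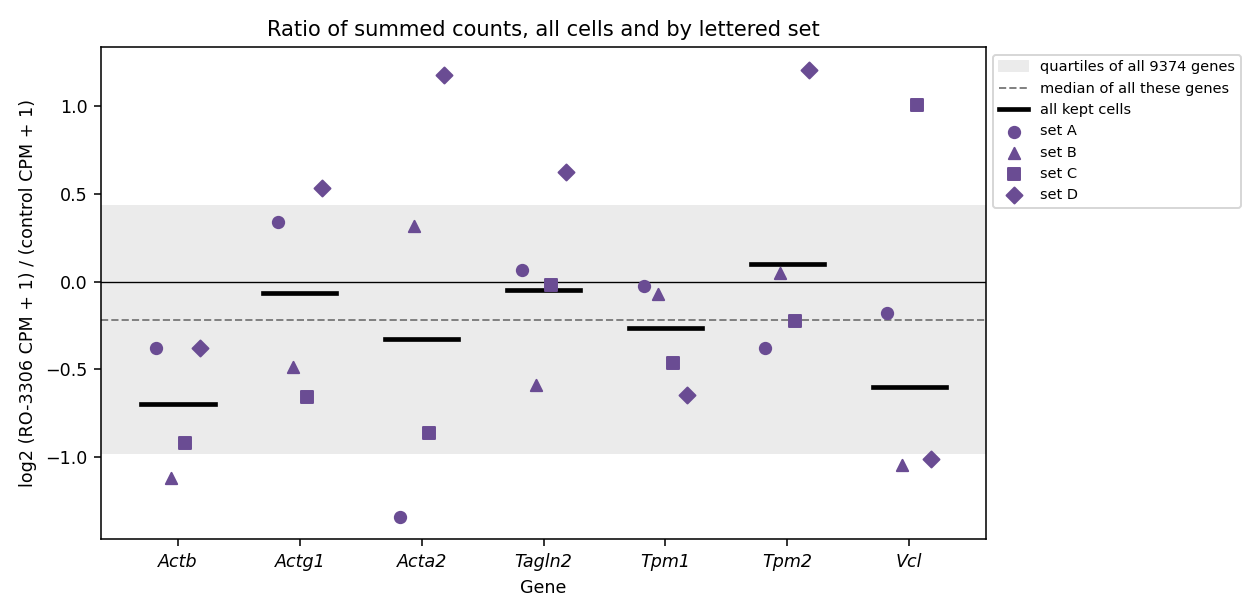
Log2 ratio of RO-3306 to control for the 7 members of at least 5 CPM, over all kept cells (black bars) and within the lettered sets A to D (symbols), beside the median (dashed) and the quartiles (grey) of all 9374 genes of at least 5 CPM. Actb and Tpm1 have all 4 sets below 0, whereas Actg1, Acta2, Tagln2 and Tpm2 have 2 sets on each side.

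The members were set against all genes in the same comparison. Of the 9374 genes that averaged 5 CPM or more, 6.43% were lower with RO-3306 by 2-fold or more with 1 sign over the 4 sets, and 7.23% were higher by the same measure; 0 members met either rule. Lower in all 4 sets at any size were 10.3% of genes, with 2 members (Actb and Tpm1) among the 7 of at least 5 CPM, and higher in all 4 sets were 13% of genes, with 0 members. Among the 3702 genes of at least 50 CPM, a level that 6 members reach, 15.9% were lower in all 4 sets. The 7 members had a median log2 ratio of -0.26, with 6 below 0, and all 9374 genes had a median of -0.22 with quartiles of -0.98 and 0.43. TMM scaling moved the median of all genes to -0.01 and that of the 7 members to -0.05, with 4 of the 7 below 0. Under that scaling the calls shifted to 4.80% lower and 9.45% higher. Over all 10 members the median was -0.17, in which Tagln and Myl9, with no counts in either group, enter at 0, and Cnn1 keeps the lowest rank in it whether it is set at its pseudocount value or at its floor.

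The 10 members together made up 7735 CPM (0.773% of counts) in control and 6190 CPM (0.619%) in RO-3306 cells. Single cells ran from 2315 to 14598 CPM in control cells and from 2895 to 9007 CPM in RO-3306 cells. Most of the gap belonged to Actb: the other 9 summed to 5098 and 4565 CPM.

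Levels of different genes were compared as TPM (counts per kilobase of the longest reference transcript, scaled to the same total in each group). In control cells the order was Actb (2785 TPM), Actg1 (1722), Tagln2 (1153), Acta2 (1048), Tpm1 (899), Tpm2 (171) and Vcl (8.38). In RO-3306 cells the order was the same, at 1556, 1489, 1009, 756, 678, 166 and 4.89 TPM. With RO-3306 the TPM of Actb and Actg1, neighbours in this order, were close, and over cells their CPM ranges overlapped. Tagln2, Acta2 and Tpm1 were closer to each other than their spread over cells. With the median transcript length in place of the longest, Tpm1 (880 TPM in control, 710 in RO-3306) came before Acta2 (717 and 552).

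Across cells, correlations between the members ran in both directions. Over 25 control and 34 RO-3306 cells at equal depth, the 15 pairs of the 6 members of at least 50 CPM had a median Spearman correlation of 0.09 in each group, between -0.35 and 0.45 in control and between -0.35 and 0.57 in RO-3306 cells. In RO-3306 cells Actg1 went with Tagln2 (0.57) and with Actb (0.56), where the control values were 0.05 and 0.23. Over all kept cells at full depth the first pair kept this contrast (0.62 and 0.05), but Actb and Actg1 did not, at 0.41 in RO-3306 and 0.46 in control cells. Actb and Tpm1 were opposed in both groups (-0.35 and -0.35). In RO-3306 cells Actg1, Tagln2 and Actb were also lower where the mitochondrial share of counts was higher (Spearman correlations of -0.42, -0.44 and -0.36), and the part of that share in their correlations was not tested. All points within a group share its library preparation, and the difference between the groups' values was not tested. Control cell C3, which was too shallow to be thinned and had the fewest detected genes of the kept cells (2109), had the lowest Actb and Actg1 of the control cells, no Acta2 or Tpm2 count, and the highest Tpm1 and Tagln2.

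**Figure D4:**
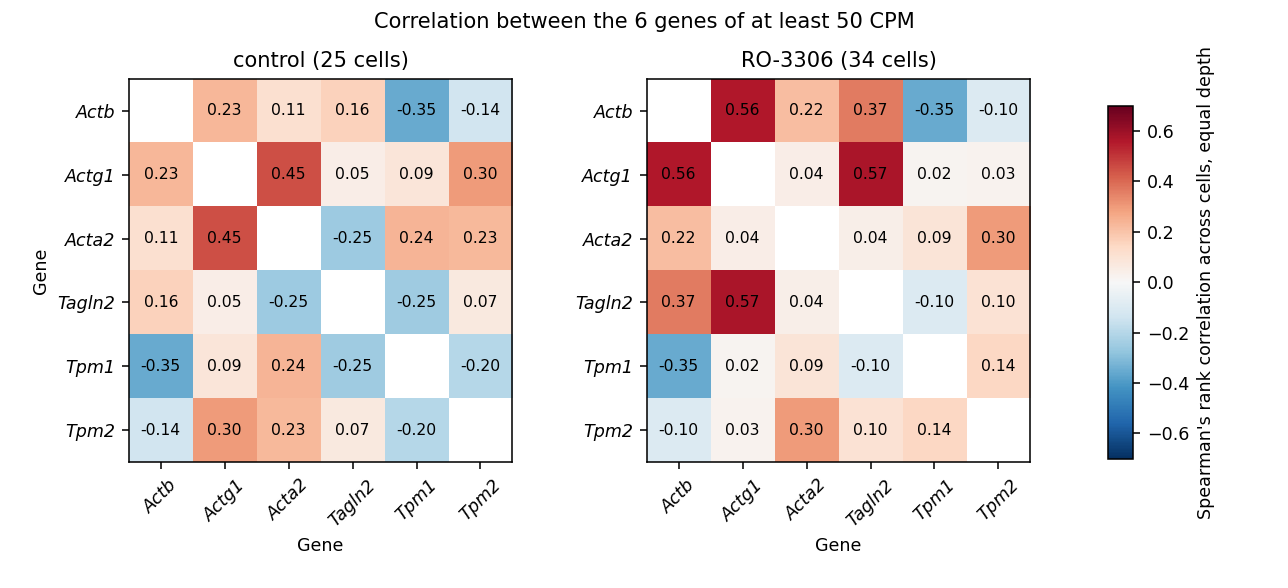
Spearman's rank correlation between the 6 members of at least 50 CPM across cells thinned to equal depth, in 25 control cells (left) and 34 RO-3306 cells (right); red is positive and blue negative. The strongest values are Actg1 with Tagln2 and with Actb in RO-3306 cells, at 0.57 and 0.56, and the median over the 15 pairs is 0.09 in each group.

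Genes were ranked by likeness to Actb and to Acta2 over the same cells, by the smaller of the Spearman correlations in the 2 groups, among 2905 genes. The closest to Actb were Bloc1s1, Sarnp and Galk2 (smaller correlation 0.41, 0.40 and 0.40), and the closest to Acta2 were Cfl2, Mrpl17 and Nelfe (0.47, 0.45 and 0.43). These are weak values at the top of a long ranking. The other members were farther off, with Actg1 at rank 61 for Actb.

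Related genes from lists set by function gave the wider picture of the cytoskeleton. Of 15 other actins and smooth muscle genes, 8 reached 5 CPM, 4 of them lower and 4 higher with RO-3306 (median log2 ratio -0.11). Acta1, skeletal muscle actin, had 0 counts, and the smooth muscle myosin heavy chain Myh11 was at 2.23 CPM in control cells and 0.01 CPM in RO-3306 cells. Others of the list were well expressed, such as the calponin Cnn2 (594 and 635 CPM) and caldesmon, Cald1 (303 and 160 CPM). Desmin (Des), the intermediate filament protein of muscle, had summed levels of 21.6 and 98.4 CPM and a count in 6 of 29 control and 34 of 37 RO-3306 cells (log2 ratio 2.14, higher in all 4 sets), while the calponin Cnn3 was lower (-0.28).

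Of the motor and filament genes of cells outside muscle, 8 of 10 at 5 CPM or more were lower with RO-3306, with a median of -0.90. All 9374 genes had a median of -0.22, and their share below 0 was not counted. Lower by 2-fold or more with 1 sign over the 4 sets were 2 of the 10, against 6.43% of all genes, and 0 were higher. The part of transcript length in this list was not tested. Ppp1cb, the catalytic subunit of myosin phosphatase, was at -1.16 with 1 sign over the 4 sets. The light chains Myl12a and Myl12b, close relatives of Myl9, were abundant where Myl9 was at 0. Myl12a was at 2335 and 2046 CPM in control cells and RO-3306 cells (-0.19) and Myl12b at 812 and 1026 CPM (0.34), and neither gene changed sign between the 4 sets.

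Adhesion genes, the partners of Vcl, gave the most one-sided list. All 18 reached 5 CPM, and 16 were lower with RO-3306 and 2 higher (median -0.86). All 9374 genes had a median of -0.22 and a lower quartile of -0.98, and their share below 0 was not counted. Of the 18, 5 were lower by 2-fold or more with 1 sign over the 4 sets, against the 6.43% of all genes given above, and 0 higher. Fermt2 (kindlin-2, an integrin activator) went from 133 to 35.7 CPM (-1.87), Lasp1 from 177 to 50.4 CPM (-1.79), zyxin (Zyx) from 523 to 282 CPM (-0.89) and parvin alpha (Parva) from 284 to 210 CPM (-0.43). Many of these transcripts are long, and Vcl above shows how far genes of like length were lower as a whole; its part in this list was not tested.

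Genes of actin assembly and turnover lay on both sides, with 16 lower and 11 higher of 27 (median -0.08). Capg, which caps filament ends, was at 95.5 CPM in control cells and 471 CPM in RO-3306 cells (2.29), and Coro1b, a coronin that acts on branched networks, at 252 and 629 CPM (1.32). Lower were radixin (Rdx, -1.99), which ties actin to the membrane, and Actr2 (-1.05), a subunit of the Arp2/3 complex. Cofilin (Cfl1), which severs filaments, differed little at 4251 and 3852 CPM (-0.14).

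**Figure D5:**
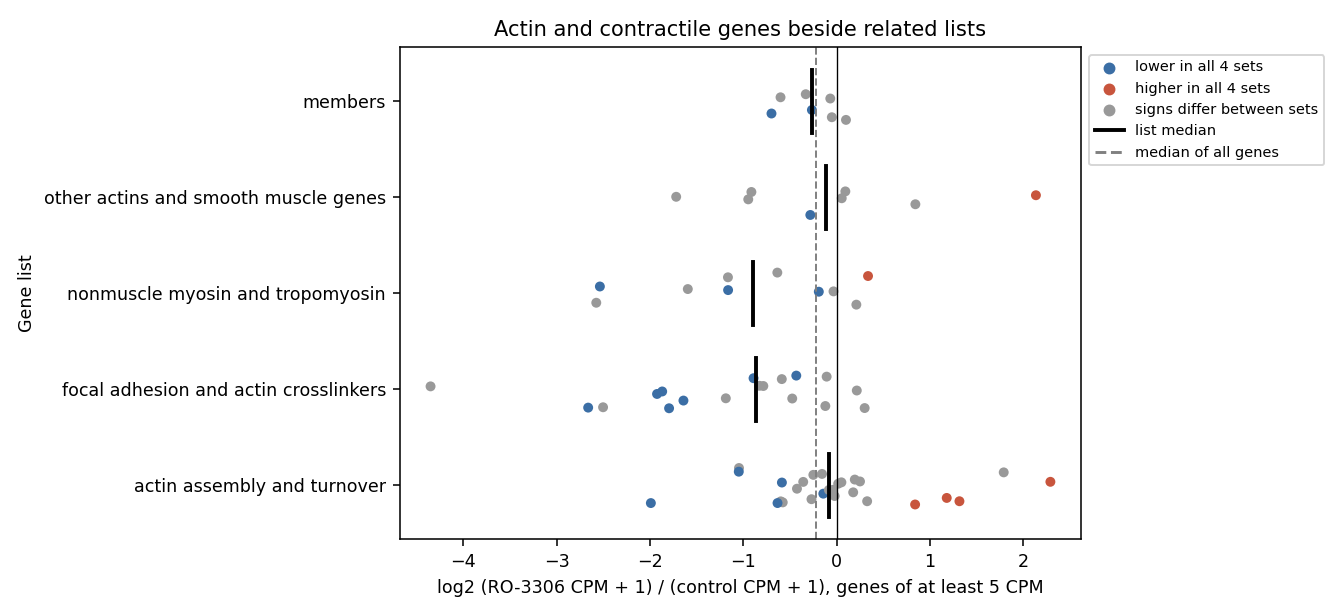
Log2 ratio of RO-3306 to control for each gene of at least 5 CPM in the members and 4 related lists; blue points are lower and red points higher in all 4 lettered sets, grey points differ in sign, black bars are list medians and the dashed line is the median of all genes. The adhesion list has 16 of 18 points below 0, whereas the members lie within 1 log2 unit of 0.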

How the data were processed

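RNA was measured in 96 single C10 cells. The authors deposited 1 table of expected counts per library; per the file headers, featureCounts 2.0.3 summed reads over whole gene spans of the GRCm39 RefSeq annotation and split reads with several positions into fractions, and strand use is not given in the sources used here. STAR and FastQC are named in the submitters' processing notes without versions. Fractional counts were kept. Counts of the kept cells were summed per group and scaled to CPM, with a pseudocount of 1 CPM. Members and gene lists were chosen with earlier results of these data known. Beyond the members, the text names in each list, where they exist, the 2 highest and 2 lowest log2 ratios among genes of at least 50 CPM with 1 sign in all 4 sets; other genes were picked after their values were seen. Marker lists for alveolar type I cells, endothelium and leukocytes were also summed. 1 further list is not reported here. Alternatives changed the scaling (edgeR 4.0.16 TMM, DESeq2 1.42.0 size factors, nuclear-coded totals), pseudocount, weighting and choice of cells, rounding, length and sets. The ratio and the thinning were tested on simulated data. No 2 of the kept cells (2145 pairs) held identical values. Python 3.11.15 and R 4.3.3 were used.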

Additional observations from a re-analysis of the deposited data

Results flagged for a closer look

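The libraries left out for low depth or few genes (19 control, 11 RO-3306) still held counts of 6 members, of which 5 were above their level in the left-out control libraries; Tpm1 was not, at 33.5 CPM against 46.9. In the left-out RO-3306 libraries Actb was at 2707 CPM, against 96.7 CPM in left-out control libraries, and 87.6% of its counts came from the library D4. Actg1 was at 309.9 CPM against 40.04, Acta2 at 249.9 CPM against 32.2 and Tagln2 at 144 CPM against 14.7; library D10 held 83.1%, 84.3% and 82.6% of these counts. Tpm2 was at 393 CPM against 0, with 97.2% of the counts in library D5. Each of these 3 libraries had under 1000 detected genes (874, 743 and 943), and the total of the left-out control libraries, 341166 counts, is smaller than that of the left-out RO-3306 libraries, 1162603 counts.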

How the results depend on the processing

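The median log2 ratio of the 10 members, -0.17, was below 0 under the alternatives run for it, but 0 when each member was compared by its medians over cells. It was -0.026 with TMM factors, -0.015 with DESeq2 size factors, -0.14 with the total of nuclear-coded counts and -0.15 with a mean over cells, and between -0.20 and -0.043 when each lettered set was left out. The counts of members past 2-fold with 1 sign in the sets were 0 in each direction under the alternatives run. The signs of Actb and Tpm1 held under all 16 alternatives; Actg1, Acta2, Tagln2, Tpm2 and Vcl each changed sign under at least 1. The median Actb share stayed between 61.8% and 65.2% in control and between 51.7% and 53.6% in RO-3306 cells; its alternatives, and the cells left out in turn, were chosen after seeing the data. With 1 sample per treatment, a difference between the treatments cannot be told apart from a difference between cultures or library preparations.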

Other observations

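The alveolar type I list held 1 abundant gene, Cav1, which builds caveolae, at 1111 CPM in the control group and at 963 CPM with RO-3306, with Ager and Aqp5 at 0. Endothelial markers summed to 0.619 and 0.311 CPM. Leukocyte markers summed to 58.6 and 381 CPM, of which Cd68, a lysosomal membrane protein, made 0.08 and 320 CPM, while Marco and Aif1 were at 0.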
